A study of Bos taurus with 43 samples.

Results

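In biceps brachii muscle of slaughtered beef cattle, 8 genes had their lowest signal in the same 11 animals of unknown treatment history. The genes were DHX57, ALDH16A1, FLOT2, ZDHHC5, AGPAT1, UNK, COMMD4 and APBA3, each read by 1 probe out of 21475 gene probes on the array. They were a given list of probes, selected on their normalized log2 signal: an earlier look at these arrays had found a larger change between the 2 published clusters of unknown animals than between positive and crossbreed control animals. No threshold was given with the list. Those 2 changes and the difference between them therefore chose the genes, and they are given below as a description with no test. The name under which the genes were grouped, a shift mainly among unknown animals, was read against the values of all animals. The signal was low in the unknown animals of cluster A against every other animal, controls included, and was close to the Holstein controls in the unknown animals of cluster B.

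Total RNA of 43 male animals was hybridised with a single dye, 1 animal per array. The sets of animals were given by the labels and the methods, namely 4 animals positive for corticosteroids by thymus histology and urine analysis, which the labels call suspected of such treatment, 21 commercial animals of unknown treatment, 5 untreated crossbreed (Charolais × Limousine) bulls and 13 untreated Holstein animals. The positive and unknown animals were sampled at the slaughterhouse, so dose, agent and time of any treatment were not controlled. The commercial animals were mostly Charolais, Limousine or their crosses, and the 2 control sets came from other experiments. The study divided the unknown animals by a principal component plot of these same arrays into 10 that lay with the positive animals (unknown B) and 11 that lay with the crossbreed controls (unknown A), of which 5 were in its group 2 and 6 in its group 4. The clusters were thus themselves drawn from array signal.

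The 8 genes do not form a known pathway. DHX57 and UNK belong to families of RNA-binding proteins: DExH-box helicases use ATP to remodel RNA, and CCCH zinc finger proteins bind messenger RNA and alter its translation or decay. FLOT2, ZDHHC5 and AGPAT1 act at membranes, where flotillins build scaffolds in lipid-rich domains, DHHC enzymes attach palmitate to proteins, and acyltransferases make the phosphatidic acid from which phospholipids and triglycerides are built. COMMD4 belongs to a complex that returns membrane proteins from endosomes to the cell surface, and APBA3 is an adaptor of membrane traffic, while ALDH16A1 is an aldehyde dehydrogenase relative. A lower signal in whole muscle can come from fewer cells of a type or from less RNA per cell, which bulk tissue cannot tell apart.

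**Figure D1:**
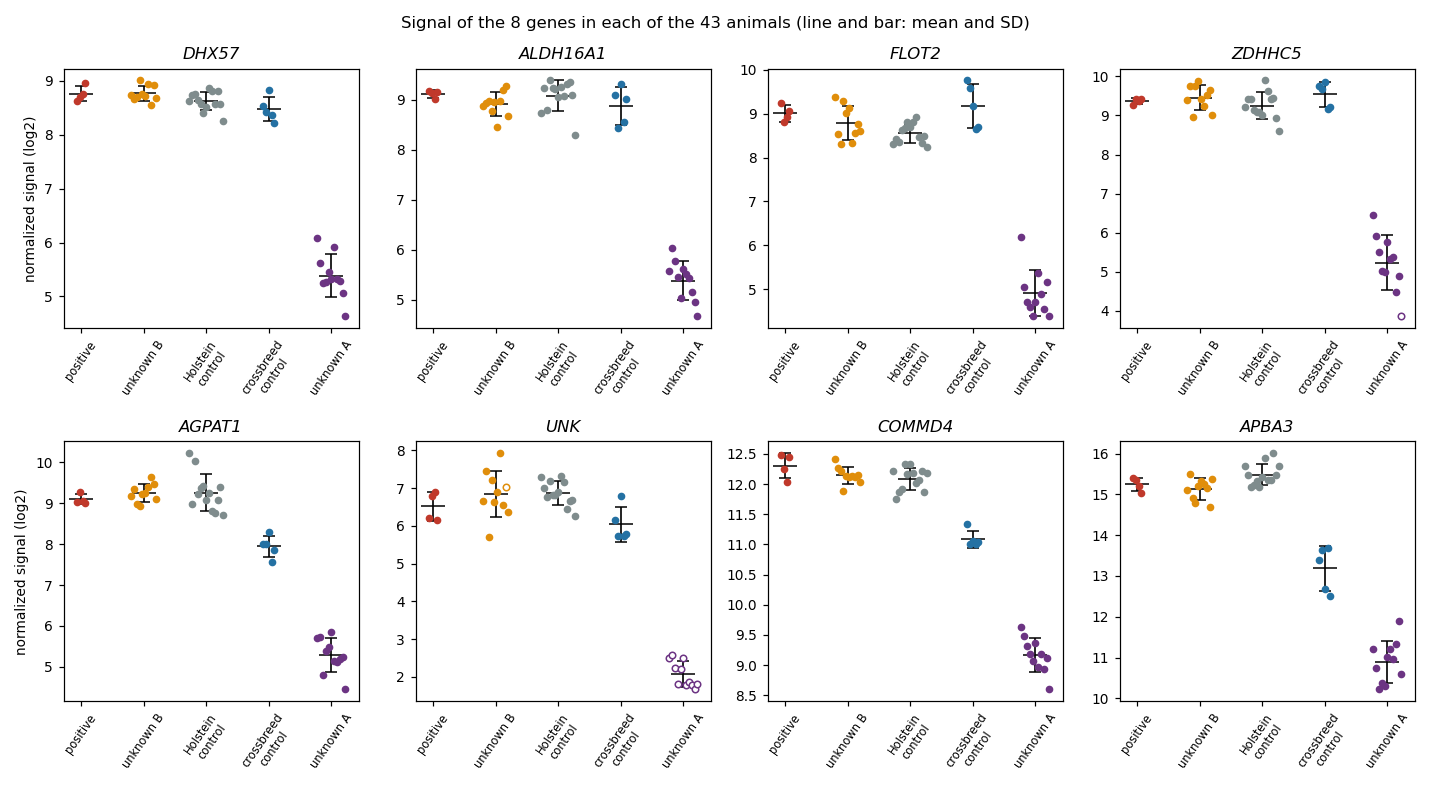
Normalized signal (log2, a separate scale for each gene) of the 8 genes in every animal, by set, with the mean (line) and SD (bar) of each set and open circles for values not well above background. The 11 unknown A animals lie below the other 32 at all 8 probes, and the 5 crossbreed controls lie between at AGPAT1, COMMD4 and APBA3.

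The 11 unknown A animals lay below each of the other 32 animals at 8 of the 8 probes. The same was true of 353 of the 16354 probes tested, 2.16%, and since the genes were chosen for their unknown A signal nothing is read from their count. The gap between the highest unknown A animal and the lowest of the other 32 was 0.63 on the log2 scale for APBA3, 2.25 for ALDH16A1, 2.16 for ZDHHC5, 2.13 for DHX57, 2.06 for FLOT2, 1.72 for AGPAT1 and 1.37 for COMMD4. UNK was not well above background on any unknown A array, so its gap is not exact. The floor of an array is taken as the lowest signal that was well above background on it. Against the highest floor among the unknown A arrays the UNK gap was 1.19. A floor is not a strict limit of detection, and UNK is not ranked with the others. A gap of at least 2-fold was seen at 67 probes, 0.41% of those tested. The 8 genes differed in a second respect, the position of the crossbreed controls, which overlapped the positive and unknown B animals at DHX57, ALDH16A1, FLOT2, ZDHHC5 and UNK but lay apart below them at AGPAT1, COMMD4 and APBA3.

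DHX57, a putative RNA helicase of the DExH-box family, had signals in unknown A from 4.63 to 6.09 with a median of 5.32 (log2 scale, as are all signals below). Unknown B ran from 8.55 to 9.01 with a median of 8.72, and Holstein controls from 8.26 to 8.87 with a median of 8.62. The 4 positive animals read 8.63, 8.71, 8.76 and 8.96. The 5 crossbreed controls, at 8.22, 8.37, 8.43, 8.53 and 8.83, overlapped all sets but unknown A. Unknown B exceeded unknown A by 3.38 ± 0.13 (SE), a 10.4-fold difference in signal, and positive exceeded crossbreed animals by 0.29 ± 0.19, so the first change was larger by 3.09 ± 0.23.

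UNK, the mammalian unkempt protein, is a CCCH zinc finger protein known as a repressor of translation in neurons. Its probe was not well above background on any of the 11 unknown A arrays, where it read 1.67 to 2.58 with a median of 1.86. It was well above background on all arrays of the other sets except that of unknown B animal 79, which read 7.03. The 4 positive animals read 6.16, 6.20, 6.79 and 6.90, and the crossbreed controls 5.72, 5.73, 5.79, 6.16 and 6.78. Positive and crossbreed animals overlapped, and unknown B had the largest SD of any set outside unknown A over the 8 genes, 0.62 (n = 10), with values from 5.69 in animal 50 to 7.92 in animal 76 with a median of 6.77. Because the unknown A values are not exact, each was raised to the lowest signal that was well above background on its array. The UNK signal was then 8.24-fold higher in unknown B, 8.42-fold in Holstein, 6.58-fold in positive and 4.73-fold in crossbreed animals. These folds are not strict lower limits. On the array of animal 79 that lowest signal was 4.85, yet UNK at 7.03 was not well above background. The measured means were 6.84 in unknown B and 2.07 in unknown A, a difference of 4.77 ± 0.20, against 0.48 ± 0.31 between positive and crossbreed animals. With a background correction that compresses dim signals, the first difference was 0.81.

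ALDH16A1 is an aldehyde dehydrogenase relative whose mammalian form lacks the usual catalytic cysteine and which binds maspardin, the product of SPG21. Unknown A read 4.67 to 6.04 with a median of 5.46. The 4 positive animals, at 9.01, 9.14, 9.15 and 9.17, lay inside the range of the crossbreed controls, at 8.43, 8.55, 9.01, 9.09 and 9.32. Unknown B, from 8.45 to 9.28 with a median of 8.94, and Holstein controls, from 8.29 to 9.39 with a median of 9.21, covered the same range. The change between the unknown clusters was 3.52 ± 0.14, and that between positive and crossbreed animals 0.24 ± 0.22, a difference of 3.29 ± 0.26.

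FLOT2, which pairs with FLOT1 to form flotillin scaffolds, read 4.38 to 6.19 in unknown A with a median of 4.71. One animal, number 36, supplied the 6.19, and the next highest read 5.38. The crossbreed controls, at 8.66, 8.69, 9.18, 9.59 and 9.76, included the highest FLOT2 values of the 43 animals, and the positive animals, at 8.80, 8.92, 9.06 and 9.24, lay within their range. Unknown B ran from 8.32 to 9.38 with a median of 8.69 and Holstein controls from 8.25 to 8.92 with a median of 8.50. Unknown B exceeded unknown A by 3.88 ± 0.19, whereas positive minus crossbreed was -0.17 ± 0.30, leaving a difference of 4.06 ± 0.36.

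ZDHHC5, a palmitoyltransferase of the plasma membrane, had the widest spread of the 8 genes within unknown A, from 3.85 to 6.44 with a median of 5.32 and an SD of 0.71 (n = 11). The lowest value, in animal 270, was not well above background. Positive animals read 9.26, 9.37, 9.41 and 9.42 and crossbreed controls 9.17, 9.22, 9.69, 9.76 and 9.85. These 2 sets overlapped each other and also unknown B, from 8.96 to 9.88 with a median of 9.46, and the Holstein controls, from 8.60 to 9.90 with a median of 9.22. The change between unknown clusters was 4.23 ± 0.21 and that between positive and crossbreed animals -0.17 ± 0.32, a difference of 4.40 ± 0.39.

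AGPAT1, the acyltransferase that converts lysophosphatidic to phosphatidic acid in the endoplasmic reticulum, had 3 levels. Unknown A read 4.45 to 5.85 with a median of 5.25, and the crossbreed controls read 7.57, 7.85, 8.01, 8.01 and 8.29. The positive animals, at 9.0, 9.04, 9.06 and 9.27, unknown B, from 8.93 to 9.64 with a median of 9.24, and Holstein controls, from 8.72 to 10.22 with a median of 9.22, overlapped one another above both. Unknown B exceeded unknown A by 3.96 ± 0.14, and positive exceeded crossbreed animals by 1.15 ± 0.21.

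COMMD4, a COMM domain protein, had the same order and the smallest change between the unknown clusters, 2.98 ± 0.10 or 7.87-fold. Unknown A read 8.60 to 9.63 with a median of 9.18, and the crossbreed controls 11, 11.01, 11.04, 11.05 and 11.33. The positive animals read 12.04, 12.25, 12.45 and 12.48, unknown B 11.88 to 12.41 with a median of 12.14, and Holstein controls 11.75 to 12.33 with a median of 12.16. The last 3 sets overlapped and lay above the crossbreed controls. Positive animals exceeded crossbreed controls by 1.22 ± 0.16, so that the change between unknown clusters was larger by only 1.76 ± 0.19.

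APBA3, the X11 gamma or Mint3 adaptor, binds the amyloid precursor protein APP and also the factor inhibiting HIF1, encoded by HIF1AN. It too had 3 levels. Unknown A read 10.22 to 11.89 with a median of 10.96, and the crossbreed controls 12.52, 12.68, 13.40, 13.64 and 13.68. The positive animals, at 15.04, 15.20, 15.36 and 15.40, unknown B, from 14.68 to 15.50 with a median of 15.18, and Holstein controls, from 15.18 to 16.01 with a median of 15.42, lay above both without a separation among them. The change between unknown clusters was 4.24 ± 0.18 and that between positive and crossbreed animals 2.06 ± 0.28, so APBA3 moved in both, with a difference of 2.17 ± 0.33.

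**Figure D2:**
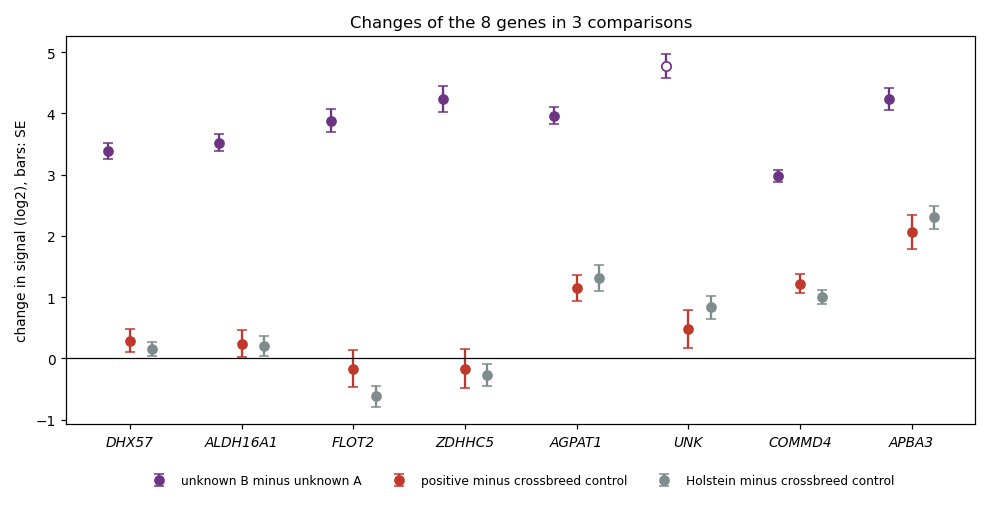
Log2 change (points) and SE (bars) of each gene between unknown B and unknown A, between positive and crossbreed control animals, and between Holstein and crossbreed controls. The first change lies between 2.98 and 4.24 at the 7 genes other than UNK, whose open circle is the measured 4.77 with unknown A not well above background, and the other 2, which share the crossbreed controls, lie both above 1 at AGPAT1 and APBA3, while at COMMD4 the Holstein change falls just short of 1.

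Side by side, the change between unknown clusters ran from 2.98 to 4.24 over the 7 genes other than UNK. The median of the 8 was 3.92 with the measured UNK values and 3.70 with UNK at the 8.24-fold found against the floors of the unknown A arrays. The change between positive and crossbreed animals ran from -0.17 to 2.06 with a median of 0.38. Over all 16354 probes the medians were -0.05 and -0.03. All 8 genes were at least 2-fold higher in unknown B than in unknown A, as were 14.5% of probes, and 3 of 8, AGPAT1, COMMD4 and APBA3, were at least 2-fold higher in positive than in crossbreed animals, as were 14.7%. The difference between the 2 changes was at least 2-fold for 8 of 8 genes, with UNK at its measured values, and for 11.6% of probes. A change of 8-fold or more between unknown clusters was found at 131 probes, 0.801%, and at all 8 genes but COMMD4, again with UNK at its measured values. With the background correction that compresses dim signals, the changes of DHX57, ALDH16A1, FLOT2, ZDHHC5 and AGPAT1 between unknown clusters fell to between 1.67 and 2.33. COMMD4 and APBA3 gave 2.65 and 4.18. UNK fell to 0.81, and its difference between the 2 changes to 0.61, both below 2-fold. With cyclic loess over every pair of arrays, positive minus crossbreed turned to -0.22 at DHX57 and -0.30 at ALDH16A1, and was -0.66 at FLOT2 and -0.67 at ZDHHC5. AGPAT1 gave 0.67 there and 0.78 with the background correction, so that under either of these 2 settings COMMD4 and APBA3 were the genes at least 2-fold higher in positive animals.

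**Figure D3:**
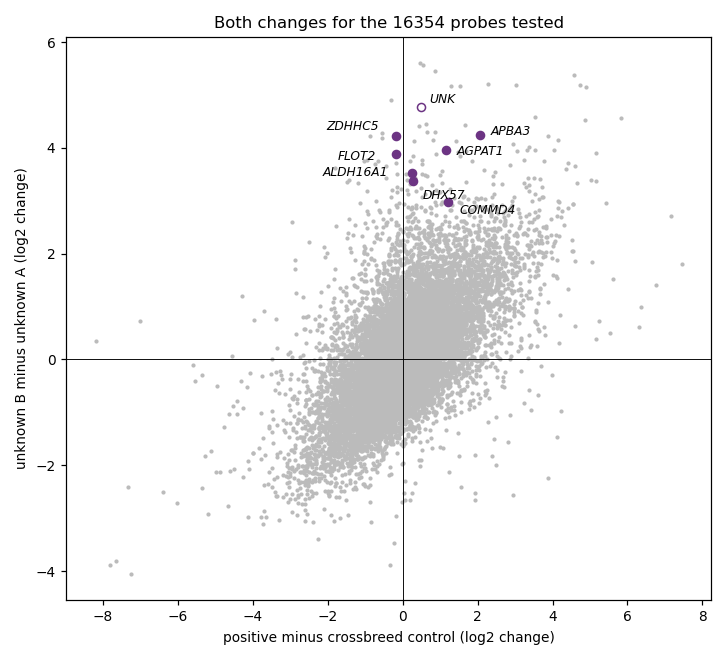
Each grey point is 1 of the 16354 probes tested, placed by its log2 change between positive and crossbreed control animals (horizontal) and between unknown B and unknown A (vertical), and the 8 genes are named in purple, with an open circle for UNK, which was not well above background in unknown A. The 8 genes lie above 2.9 on the vertical axis and between -0.17 and 2.06 on the horizontal one.

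The arrays of the 11 unknown A animals lay on 3 slides and were scanned on 2 days, and no array of another set shared those slides or days. Cluster A and its slides and scan days therefore cannot be told apart. The scanner was shared with the positive, unknown B and Holstein arrays, whereas the crossbreed controls were scanned on 2 others. The mean log2 signal of the spiked-in control RNAs was 11.33 to 12.13 on unknown A arrays, 12.07 to 12.43 on positive, 12.53 to 12.95 on crossbreed and 12.47 to 13.40 on Holstein arrays. On unknown B arrays it ran from 7.75 to 13.03, and held the weakest control signals of the 43 arrays. The share of spots well above background was 66.32% to 79.19% in unknown A, 40.21% to 97.29% in unknown B, 74.95% to 89.4% in positive, 62.92% to 73.65% in crossbreed and 62.34% to 73.22% in Holstein animals, and the part of array quality in the result was not tested.

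**Figure D4:**
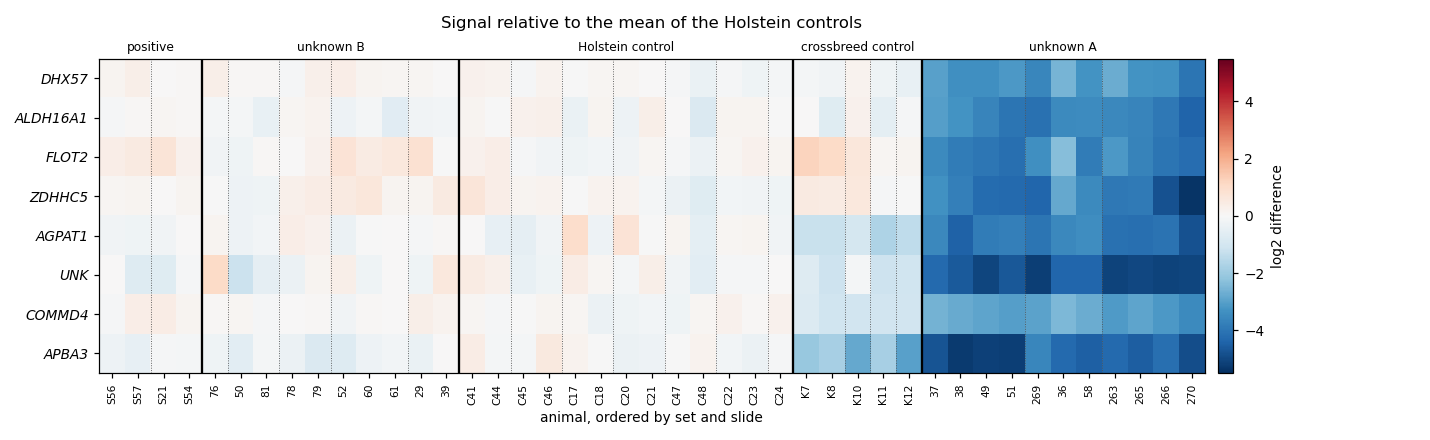
Signal of each gene (vertical) in each animal (horizontal) as the log2 difference from the mean of the 13 Holstein controls, with solid lines between sets and dotted lines between slides. The low values fill the 3 slides of unknown A at all 8 genes, and the crossbreed controls are paler blue at AGPAT1, COMMD4 and APBA3.

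Both scan days of unknown A held the low signal. The 4 animals of the earlier day had means of 5.40 for DHX57, 5.58 for ALDH16A1 and 9.26 for COMMD4. The 7 animals of the later day had means of 5.38, 5.28 and 9.11 for the same genes. Only APBA3 separated the days by more than both SDs, with 10.41 ± 0.24 (SD, n = 4) and 11.17 ± 0.40 (SD, n = 7). Within unknown A, animal 270 had the lowest value of 6 of the 7 genes other than UNK, and animal 36 the highest of 4.

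The 2 slides of the positive animals also held 4 unknown B animals, which gives a comparison within slides. Each of these slides held 2 animals of either set. Positive minus unknown B was 0.53 on one slide and 0.35 on the other for FLOT2, and 0.13 and 0.23 for COMMD4. It went opposite ways on the same slides for ZDHHC5, at 0.40 and -0.25, for UNK, at 0.51 and -0.29, for ALDH16A1, at 0.25 and -0.09, and for DHX57, at 0.16 and -0.06. AGPAT1 differed on the second slide alone, by -0.40, and APBA3 gave -0.02 and 0.46. Only FLOT2 kept the 2 sets apart there, with the 4 unknown B animals at 8.32, 8.56, 8.61 and 8.77 below the 4 positive animals.

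The unknown B animals on the other slides were set against those on the slides of the positive animals, a comparison that the choice of genes did not use. The 8 genes changed by -0.21 to 0.72 with a median of 0.13, against 0.01 over all probes. None passed the threshold of an adjusted p of 0.05 with a 2-fold change in limma's moderated test, nor did any of the 16354 probes (0%), of which 2481 had an unadjusted p below 0.05. Other scalings and a fit over all 43 arrays called up to 2004 probes, but none of the 8. UNK changed by 0.72 ± 0.31 with an adjusted p of 0.311 in limma, and its direction turned with 75th percentile scaling, at -0.31, and with cyclic loess over every pair, at -0.40. The 6 animals on the other slides read 6.63 to 7.92 with a median of 7.06 and overlapped the 4 on the slides of the positive animals, at 5.69, 6.36, 6.54 and 7.03.

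Unknown A joined 2 of the study's groups, 5 animals of group 2 and 6 of group 4, and all 8 genes were low in both. Over the 7 genes other than UNK, group 4 minus group 2 ranged from -0.56 for APBA3 to 0.82 for ZDHHC5 with a median of 0.38, against -0.07 over all probes. None of the 8 genes passed the threshold in limma, although 13.7% of probes did, and 3 of the 7 other than UNK, ZDHHC5, COMMD4 and AGPAT1, had an unadjusted p below 0.05, as did 41.9% of all probes. UNK was not well above background in either group, and its difference between them is not read. ZDHHC5, at 0.82 ± 0.33 with an adjusted p of 0.0819 in limma, crossed the threshold under quantile normalization, at 1.16 with an adjusted p of 0.0277. Without group 2 animal 270, which was not well above background, it was 0.59 with an adjusted p of 0.181. One slide held animals of both groups. There ZDHHC5 read 6.44 and 5.75 in group 4 animals 36 and 58 and 4.88 in group 2 animal 269. APBA3 read 11.21 and 11.01 against 11.89. The remaining group 2 animals, on another slide scanned the same day, read 3.85 to 5.37 for ZDHHC5 and 10.6 to 11.34 for APBA3. On that day group 4 thus lay within the range of group 2 at APBA3. The remaining group 4 animals were all scanned on the earlier day, so group and day overlap. With slide as a random block the changes were 0.91 for ZDHHC5 and -0.60 for APBA3, with adjusted p of 0.136 and 0.15 in limma.

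Between the 2 untreated control sets the 8 genes divided. The Holstein animals did not enter the choice of the genes, but the crossbreed animals did, so these tests are not independent of it. APBA3 was higher in Holstein than in crossbreed controls by 2.30 ± 0.19 on the log2 scale, 4.92-fold, with an adjusted p of 4.29e-08 in limma. AGPAT1 was higher by 1.31 ± 0.21, 2.48-fold, with an adjusted p of 7.92e-05. The Holstein and crossbreed animals did not overlap at either. With these, 2 of 8 genes passed the threshold as higher in Holstein controls, beside 10.9% of all probes, and none as lower, beside 9.69%.

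COMMD4 fell just short of the 2-fold limit, with a change that rounds to 1.0 ± 0.11, an adjusted p of 1.46e-06 in limma and no overlap between 13 Holstein and 5 crossbreed animals, and it crossed the limit with 75th percentile scaling, cyclic loess over every pair, the deposited series values, slide as a random block, and without crossbreed replicate 1, giving 1.0 to 1.06. UNK, at 0.83 ± 0.19, and FLOT2, at -0.62 ± 0.17, had adjusted p of 0.00147 and 0.00538 in limma but less than a 2-fold change, and the UNK change was 1.02 without crossbreed replicate 3 and 0.22 with the background correction that compresses dim signals. DHX57, at 0.15 ± 0.11, ALDH16A1, at 0.20 ± 0.17, and ZDHHC5, at -0.28 ± 0.18, had adjusted p of 0.277, 0.357 and 0.197. Breed, source experiment, body weight, slide and scanner all changed with the control set, as in part did age, so their parts cannot be told apart.

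Within 1 gene of the 8 a second probe could be read. The other APBA3 probe was well above background on all 43 arrays and read 5.5 to 8.21 in unknown A and 8.32 to 10.26 in the other 32 animals, so it too kept unknown A below. Its change between unknown clusters was 1.89, less than the 4.24 of the first probe. It differed in the crossbreed controls, whose mean of 9.85 lay above that of the positive animals, 9.64, where the first probe had them lower by 2.06. Its Holstein mean, 9.30, also lay below the crossbreed mean, opposite to the first probe.

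Genes whose signal ran closely parallel to the mean profile of the 8 over the 30 animals other than Holstein were SRPRA, the receptor subunit for the signal recognition particle (Pearson r = 0.996), ARVCF, a catenin of cell junctions (r = 0.993), RANBP3, a cofactor of nuclear export (r = 0.989), and RPL4, a protein of the large ribosomal subunit (r = 0.986). These values describe the split between unknown A and the rest, which these probes share with the 8 genes, and the 8 genes were chosen for that split. SRPRA averaged 7.11 in unknown A and 10.59 in unknown B, and RPL4 10.97 and 13.72. An r of at least 0.9 was reached by 284 of 13068 other named probes.

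Other probes of such genes mostly did not follow them. ARVCF had a second probe that averaged 13.30 in unknown A and 13.22 in unknown B, a change of -0.08 where the first changed by 3.47. Apart from the 8 genes, 60 probes kept unknown A below all other animals by at least 2-fold, and 52 of them carried a gene symbol. Of those genes 12 had more than 1 probe, with 13 further probes. The change between unknown clusters had a median of 3.07 at the 12 probes that chose them, 1 of which was not well above background on any unknown A array. The median was -0.38 at the 13 further probes, against -0.05 over all probes. Of the 13, 1 was at least 2-fold higher in unknown B, beside 14.5% of all probes, and 8 were lower. Some of the 13 were dim, with as few as 2 of 11 unknown A or 2 of 10 unknown B arrays well above background. With no minimum gap, 41 genes had 44 further probes with a median change of -0.37, of which 2 were at least 2-fold higher. These further probes were not used in the choice, the 7 genes other than APBA3 had no second probe that could be read, and the part of probe position or transcript form was not tested.

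**Figure D5:**
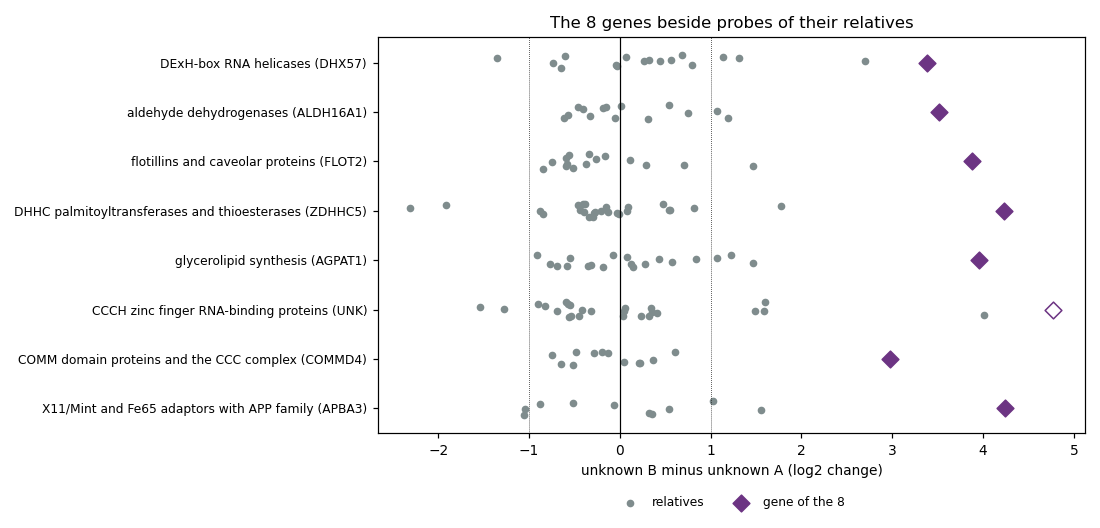
Log2 change between unknown B and unknown A for the 8 genes (diamonds) and for each probe of their relatives (grey points, spread vertically at random), with an open diamond for UNK, which was not well above background in unknown A, and dotted lines at 2-fold. The relatives lie mostly between -1 and 1, and ZC3H4 lies apart at 4.01.

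Relatives of the 8 genes were read in 8 lists, and in each the median change between unknown clusters lay between -0.37 and 0.30, against -0.05 for all probes. In limma, 14.3% of all probes were higher in unknown B and 11% lower, and between positive and crossbreed animals 12.6% were higher and 12.5% lower. Among other DExH-box helicases 3 of 16 probes were higher and 1 was lower. DHX58, a regulator of the antiviral RNA sensors, was higher by 2.70 with an adjusted p of 7.54e-07 in limma, with 1 of the 11 unknown A arrays well above background at that probe, DHX37 and DHX34 were higher by 1.31 and 1.14, and DHX32 was lower, at -1.35. DHX37 and DHX32 moved in the same directions between positive and crossbreed animals, by 1.37 and -1.66.

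Of 25 probes for other CCCH zinc finger proteins, 4 were higher in unknown B and 2 lower. ZC3H4, which restrains transcription of noncoding RNA, was higher by 4.01 in unknown B and by 3.38 in positive animals, with means of 6.34 in unknown A, 7.27 in crossbreed and 11.02 in Holstein animals. Its adjusted p in limma were 3.11e-14 and 9.35e-08. ZC3H14 and ZC3H7B were higher by 1.59 and 1.49 in unknown B and changed by 0.17 and 0.09 between positive and crossbreed animals. MBNL1 and MBNL2, splicing regulators of muscle, were lower in unknown B, at -1.54 and -1.27, and the 11 unknown A animals lay above all others at MBNL1, as they did at 0.544% of probes. ZC3H10 was higher by 1.60 in unknown B and by 2.16 in positive animals, with adjusted p of 0.00126 and 0.00688 in limma, although it exceeded background on 4 of 11 unknown A, 6 of 10 unknown B and 3 of 5 crossbreed arrays. The closest relative of UNK, UNKL, changed by -0.54 with an adjusted p of 0.0632 in limma.

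The membrane relatives were read in the same way. Of 15 probes for flotillin-related and caveolar proteins 1 was higher in unknown B, that of STOML1. It exceeded background on 5 of 10 unknown B and 1 of 11 unknown A arrays, so its measured 1.47 is not an exact change. FLOT1, the partner of FLOT2, changed by -0.34 with an adjusted p of 0.11 in limma. Of 25 probes for DHHC enzymes, their cofactors and thioesterases, ZDHHC24 was higher by 1.78 and ZDHHC21 and ZDHHC22 were lower, at -2.31 and -1.91, ZDHHC21 being well above background on 1 of 10 unknown B arrays. ZDHHC24 was the only one of the 136 relative probes at which the 11 unknown A animals lay below all others. Of 19 probes for glycerolipid synthesis 3 were higher and none lower, namely GPAM by 1.47, GPAT2 by 1.22 and LPIN3 by 1.07, which exceeded background on 3 of 11 unknown A and 6 of 10 unknown B arrays, and AGPAT2, which catalyses the same step as AGPAT1, changed by -0.69. Between positive and crossbreed animals, 3 of the 15 flotillin-related and caveolar probes were higher, among them CAVIN2 by 1.63 and CAV2 by 1.57 at 1 of its 2 probes, and 1 was lower. Of the 19 glycerolipid probes 4 were higher, among them DGAT2, a triglyceride-forming acyltransferase, by 1.74, and LPIN3, which exceeded background on 1 of 5 crossbreed arrays. MOGAT1 was lower, although it exceeded background on 1 of 4 positive arrays, so no exact change is given. Of the 25 DHHC and related probes none was higher and 3 were lower. These counts stand beside the 12.6% and 12.5% of all probes given above, and nothing particular to the lists is read from them.

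None of 12 probes for COMM domain proteins and their partners passed the threshold in limma in either direction, and the largest change was -0.75, of COMMD3. Of 13 aldehyde dehydrogenase probes, ALDH18A1 was higher in unknown B by 1.07, ALDH3A1 was higher by 1.19 with 3 of 11 unknown A and 7 of 10 unknown B arrays above background, none was lower, and SPG21, the partner of ALDH16A1, changed by -0.18. Of 10 probes around APBA3, APP was higher in unknown B by 1.03, and HIF1AN and APBB1IP were lower, at -1.05 and -1.04. APBB2 was also higher, but with 2 of 11 unknown A arrays above background its measured 1.55 is not an exact change. The same 4 genes moved the same ways between positive and crossbreed animals, APP by 1.09, HIF1AN by -1.42 and APBB1IP by -1.37, with adjusted p of 0.0466, 0.000967 and 0.0388 in limma, and APBB2 with an adjusted p of 8.4e-05 and no crossbreed array above background, so that no exact change is given.

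Markers of muscle fibres and of other cells were read beside these values. All 9 muscle fibre probes were well above background on 43 arrays, and their summed signal was 18.96 to 19.40 in unknown A, 19.16 to 19.91 in crossbreed, 19.53 to 20.63 in unknown B, 20.07 to 20.40 in positive and 19.91 to 20.23 in Holstein animals. The muscle label thus held in all sets. In unknown B 5 of the 9 probes were higher than in unknown A and 1 was lower, beside 14.3% and 11% of all probes. The probe that was lower was TNNT3, fast troponin T, with means of 14.18 in unknown A and 11.63 in unknown B. MB, encoding myoglobin, averaged 17.37 and 18.41, and TNNT1, slow troponin T, was the marker at which the 11 unknown A animals lay below all others. Between positive and crossbreed animals 2 of the 9 probes were higher, ACTA1 and TNNT1, and 2 were lower, beside 12.6% and 12.5% of all probes. The 2 probes of TTN went apart, at 1.21 and -0.11 between unknown clusters and at 0.99 and -1.46 between positive and crossbreed animals. ACTA1 averaged 15.65 in unknown A, 16.26 in crossbreed, 17.4 in Holstein and 17.67 in both positive and unknown B animals. TNNT1 averaged 15.42, 16.7, 17.31, 17.82 and 17.78 in unknown A, crossbreed, Holstein, positive and unknown B animals. Crossbreed means thus lay between unknown A and the rest, as at AGPAT1, COMMD4 and APBA3.

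Of the 3 Schwann cell probes 2 were higher in unknown B, among them S100B by 1.36, beside 14.3% of all probes. The summed signal of the list was 9.76 to 12.51 in unknown A and 11.56 to 13.49 in unknown B. Of 3 endothelial probes VWF was higher by 1.46 and PECAM1 lower, at -1.16, of 4 leukocyte probes CD3E was higher by 1.44, of 3 adipocyte probes ADIPOQ was higher by 1.73 with 4 of 11 unknown A arrays above background, and of 5 fibroblast probes none passed the threshold in limma. The summed signals of unknown A and unknown B overlapped for each of these lists, with medians of 12.65 and 12.79 for endothelium, 9.34 and 9.58 for leukocytes, 9.47 and 10.02 for adipocytes, and 14.17 and 13.76 for fibroblasts. The adipocyte markers were also low in the crossbreed controls, as AGPAT1, COMMD4 and APBA3 were. The summed adipocyte signal was 5.83 to 7.16 in crossbreed, 9.46 to 10.48 in positive and 7.5 to 11.46 in Holstein animals. It was 8.25 to 10.28 in unknown A, above the crossbreed controls, whereas unknown A lay below them at AGPAT1, COMMD4 and APBA3. Of the 3 adipocyte probes tested 2 were higher in positive and 3 in Holstein than in crossbreed animals, beside 12.6% and 10.9% of all probes. FABP4, the fatty acid carrier of fat cells, was higher than in crossbreed animals by 5.23 in positive and by 5.03 in Holstein animals, with adjusted p of 4.83e-06 and 2.44e-05 in limma, although it exceeded background on 3 of the 5 crossbreed arrays. ADIPOQ was well above background on 0 of 5 crossbreed, 4 of 4 positive and 8 of 13 Holstein arrays. The part of cell composition in the signal of the 8 genes was not tested.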

How the data were processed

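The deposited scanner files hold spot intensity after the authors' background subtraction and detrending in Agilent Feature Extraction. The deposited series values, normalized intensities on a linear scale, were converted to log2 and used only as an alternative. The log2 intensity of 43 arrays was normalized by cyclic loess on gene and spike-in spots, spots marked as outliers were left out, and spots of a probe were averaged. Probes below 4 (log2) on at least 30 arrays were removed, leaving 16354 of 21475. All 8 genes stayed, UNK through the 32 arrays other than unknown A. Comparisons were group means in limma 3.58.1 (R 4.3.3) with Benjamini-Hochberg adjustment over all probes, and a call needed an adjusted p of 0.05 and a 2-fold change. Positive, crossbreed and both unknown clusters were fitted together, and each other comparison on its own arrays. The fit was also run on simulated data, with no outcome given here. The animals were not tied to farms or pens, so p-values measure the spread between these samples, which may be partly technical.

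Symbols came from RefSeq by accession (3524 probes), gene ID (9987), description (3198) or name (7), and 4759 kept the file's name. DHX57, ALDH16A1, ZDHHC5 and UNK were matched by gene ID or description. Probe sequences were not used here. Genes named are the 8, their other probes, up to 6 per list of relatives past the threshold with the largest change, the partners SPG21 and HIF1AN, and the 5 most alike, of which 1 is not reported here. FLOT1, UNKL, AGPAT2, COMMD3, CAVIN2, CAV2, DGAT2, MOGAT1 and the further probe of ARVCF were added once the values had been examined. The genes and lists were chosen with earlier results of these data known. Alternatives covered scaling, background, filters, slide, and animals left out.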

Additional observations from a re-analysis of the deposited data

Results flagged for a closer look

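In 45 sets of 4 to 10 animals, 1 value lay far from the others in 5, where chance gives about 1 in 20. ALDH16A1 read 9.01 in positive animal S56, below the other 3 at 9.14 to 9.17, a gap that is small in itself. FLOT2 read 6.19 in animal 36 of unknown A group 4, where the next highest read 5.05 and the lowest 4.40. AGPAT1 read 4.45 in animal 270 of unknown A group 2, below the other 4 at 5.11 to 5.25. COMMD4 read 11.33 in crossbreed control K7, above the other 4 at 11 to 11.05. The other APBA3 probe read 6.51 in animal 36, below the other 5 animals of unknown A group 4 at 7.71 to 8.13.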

How the results depend on the processing

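The 7 genes other than UNK stayed higher in unknown B than in unknown A under each of 27 alternatives, by 1.67 to 4.68, and under each of 35 alternatives each kept its larger change there than between positive and crossbreed animals, by 1.33 to 5.06. UNK, for which the deposited series values gave no usable value, kept both directions under 26 and 34, by 0.81 to 5.06 and 0.61 to 4.71, measured values that were not well above background in unknown A. Normexp background correction called fewer probes: 1056 between unknown clusters (4122 in the report), 1296 between positive and crossbreed animals (4115), 991 for the difference (1977), 1389 between Holstein and crossbreed controls (3361) and 822 between groups 4 and 2 (2246). Without a filter on dim probes positive and crossbreed animals differed at 6956 probes, and with unknown A of group 2 alone the difference had 3302. Between unknown B animals on other slides and on those of positives, 75th percentile scaling called 2004 probes, quantile normalization 1096, a common fit of all 43 arrays 285, cyclic loess over every pair 4, and leaving out 1 animal 0 to 1. The cause of these changes was not tested.

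The share of calls that were higher was 50.2% between positive and crossbreed animals and 31.1% with cyclic loess over every pair, where the median of all probes was -0.25, and 66.6% with 75th percentile scaling. Between unknown clusters it was 56.6%, and 42.3% with quantile normalization. Between Holstein and crossbreed controls it was 52.9%, and 35.4% with 75th percentile scaling. Without the 5 arrays of low spike-in signal 1 unknown B animal was left on other slides, and it was assumed to vary like the rest. No paired analysis was possible because animal numbers only name animals. Signals not well above background limit UNK in unknown A.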

Other observations

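Among the probes at which the 11 unknown A animals lay below the other 32, 2 genes outside the lists are named here after their values were seen. RXRA, a nuclear receptor, had a gap of 2.10 on the log2 scale. It averaged 6.44 in unknown A and 9.83 in unknown B at that probe, and 6.58 and 6.76 at its second probe. RAB11FIP3, an effector of endosome recycling, changed by 3.17 between unknown B and unknown A at 1 probe and by -0.56 and -0.43 at 2 others.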
